A study of Homo sapiens with 18 samples.

Results

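The genes described here are the ciliary dynein, intraflagellar transport (IFT) and Bardet-Biedl syndrome (BBS) genes. They were taken by symbol, as every gene named DNAH, DNAI, DNAAF, IFT or BBS followed by a digit, with a mean of at least 10 expected counts in any group. The patterns matched 45 of the 27968 genes in the files, and 40 of them reached the minimum. The 40 comprised 12 dynein heavy chain entries (DNAH), 6 dynein assembly factor entries (DNAAF), 14 IFT genes and 8 BBS genes. One of the DNAH entries was the antisense gene DNAH17-AS1, and one of the DNAAF entries was the readthrough gene DNAAF4-CCPG1, which shares reads with DNAAF4 and CCPG1. The lowest members by their highest group mean were DNAH12 at 23.0 expected counts, DNAH17-AS1 at 27.9 and DNAAF1 at 43.3. Below the minimum lay DNAH9 at 6.67, DNAI1 at 5, DNAH8 at 4.33, IFT74-AS1 at 1.33 and DNAI2 at 0.667, so neither dynein intermediate chain was a member. In 35 members the mean reached 10 in all 6 groups. The other 5, DNAAF1, DNAH12, DNAH17-AS1, DNAH2 and DNAH3, reached it in some groups only. The choice of this gene set names DNAH7 as higher with siRNA1 in both lines, so DNAH7 values against control are given as a description without a test.

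Motile cilia beat because dynein arms on the outer microtubule doublets of the axoneme pull on the neighbouring doublet. Each arm is built around very large heavy chain ATPases, divided into outer arm and inner arm types, and the arms are folded and assembled in the cytoplasm by the DNAAF proteins before they enter the cilium. IFT carries cargo along the axoneme in trains of 2 complexes, with IFT-B moving outward with kinesin and IFT-A returning with cytoplasmic dynein. The BBSome is a coat-like complex of BBS proteins that rides on these trains and moves membrane proteins into and out of cilia, while BBS10 and BBS12 are chaperonin-like proteins needed to assemble it. IFT and BBS genes serve the non-motile primary cilium that most cell types can form, whereas axonemal dyneins belong to motile cilia such as those of the airway lining. Transcription of many ciliary genes is driven by RFX factors and, in multiciliated cells, by FOXJ1.

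RNA sequencing had been done on 18 libraries from 2 human cancer lines, A549 from lung and MDA-MB-231 from breast, to find genes regulated by the RecQ helicase BLM. A549 cells were given a control siRNA, siRNA1, siRNA2 or siRNA3, the last 3 directed against BLM, and MDA-MB-231 cells a control siRNA or siRNA1, with 3 libraries in each of the 6 groups. All cells were grown in DMEM with 10% FBS, and the protocols mention both flat and 3D culture without assigning libraries to either. Whether replicate libraries were grown as separate cultures is not stated, and the p-values therefore reflect library-to-library spread that may be technical only. MDA-MB-231 received a single BLM siRNA, so only siRNA1 can be compared between the lines.

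Library totals ran from 30143047 to 40328208 expected counts, and each BLM siRNA lowered BLM. CPM is the count scaled to the library total with edgeR's TMM scaling, done within each line. BLM was at 79.2, 82.4 and 72.2 CPM in A549 control and 1.19, 1.17 and 1.17 with siRNA1. It was at 10.3, 10.7 and 10.8 with siRNA2 and 6.42, 6.18 and 6.81 with siRNA3. In MDA-MB-231 it was at 33.5, 35.6 and 35.9 in control and 5.23, 5.07 and 5.17 with siRNA1. The log2 fold changes against control were -6.04 ± 0.10, -2.88 ± 0.08 and -3.59 ± 0.08 for the 3 A549 siRNAs and -2.76 ± 0.07 for MDA-MB-231, where here and throughout ± is the standard error beside a log2 fold change. Within A549, BLM was thus lowest with siRNA1. With siRNA1 in MDA-MB-231 its CPM was near that of A549 siRNA3, but CPM was not scaled between the lines. Of alveolar type 2 markers, 7 of 8 were below 1 TPM in A549 control, and summed to 7.88 to 10.1 TPM, SFTPA1 being at 0 in all 3 libraries. In MDA-MB-231 control, basal-like or mesenchymal breast markers summed to 3458 to 3495 TPM, with KRT5 at 0, and luminal breast markers summed to 1957 to 2255 TPM there and 5193 to 5450 TPM in A549 control. TPM corrects for transcript length and is used below for levels compared between genes. In bulk RNA, fewer cells that express a gene and less RNA per cell cannot be told apart.

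Promoters are shown first, because RFX binding is the best known shared feature of ciliary genes. RefSeq promoter windows (GRCh38.p14, 250 bases before to 50 after the start of the gene) were found for 32 of the 40 members. The RFX core GTTGCC, or its reverse complement GGCAAC, was present in 14 of these 32 windows, which is 43.8%, and in 12.19% of all 35116 windows. The forkhead core TAAACA (reverse TGTTTA) was in 3 of 32, or 9.4%, against 12.32% of all windows, and the cell cycle homology element TTTGAA (reverse TTCAAA) in 3 of 32, against 15.16%. The 3 motifs were searched on both strands, and none contains another. The windows below belong to DNAH1, BBS1, IFT27 and IFT46, which were higher with each BLM siRNA used in either line and hold the RFX core, and to DNAH7 and DNAH11, heavy chain genes with large differences whose windows do not hold these letters. Each is written 5′ to 3′ on the strand of the gene, and capitals mark the RFX core in either orientation. DNAH1 lies at chr3:52316069-52316368, plus strand. BBS1 lies at chr11:66510385-66510684, plus strand. IFT27 lies at chr22:36776070-36776369, minus strand. IFT46 lies at chr11:118565882-118566181, minus strand. DNAH7 lies at chr2:196068788-196069087, minus strand. DNAH11 lies at chr7:21542789-21543088, plus strand.
DNAH1: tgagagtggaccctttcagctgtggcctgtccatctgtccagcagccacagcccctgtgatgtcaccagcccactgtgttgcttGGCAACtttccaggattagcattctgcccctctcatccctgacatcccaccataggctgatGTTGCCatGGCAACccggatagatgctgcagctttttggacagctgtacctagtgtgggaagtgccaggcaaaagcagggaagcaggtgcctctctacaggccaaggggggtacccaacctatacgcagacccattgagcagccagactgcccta
BBS1: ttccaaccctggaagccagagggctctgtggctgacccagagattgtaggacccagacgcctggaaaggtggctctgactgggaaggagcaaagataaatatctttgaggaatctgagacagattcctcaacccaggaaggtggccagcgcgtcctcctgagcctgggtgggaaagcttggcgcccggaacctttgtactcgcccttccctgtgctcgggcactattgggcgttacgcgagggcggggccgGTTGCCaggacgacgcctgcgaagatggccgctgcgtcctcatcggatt
IFT27: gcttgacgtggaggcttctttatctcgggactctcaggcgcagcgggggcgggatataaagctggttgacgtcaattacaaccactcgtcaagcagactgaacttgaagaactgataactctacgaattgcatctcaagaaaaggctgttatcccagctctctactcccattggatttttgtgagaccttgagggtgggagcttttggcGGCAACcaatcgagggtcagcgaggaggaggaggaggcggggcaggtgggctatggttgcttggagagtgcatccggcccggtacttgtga
IFT46: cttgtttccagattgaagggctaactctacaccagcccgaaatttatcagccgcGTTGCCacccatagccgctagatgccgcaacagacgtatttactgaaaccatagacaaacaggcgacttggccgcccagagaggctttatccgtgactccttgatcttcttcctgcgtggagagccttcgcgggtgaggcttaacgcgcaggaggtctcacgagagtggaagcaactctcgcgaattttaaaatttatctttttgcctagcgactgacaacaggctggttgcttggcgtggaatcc
DNAH7: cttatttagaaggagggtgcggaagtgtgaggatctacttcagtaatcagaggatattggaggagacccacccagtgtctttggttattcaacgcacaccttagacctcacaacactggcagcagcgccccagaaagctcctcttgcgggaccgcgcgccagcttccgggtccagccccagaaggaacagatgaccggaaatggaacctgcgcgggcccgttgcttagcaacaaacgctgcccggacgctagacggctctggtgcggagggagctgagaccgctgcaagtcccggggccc
DNAH11: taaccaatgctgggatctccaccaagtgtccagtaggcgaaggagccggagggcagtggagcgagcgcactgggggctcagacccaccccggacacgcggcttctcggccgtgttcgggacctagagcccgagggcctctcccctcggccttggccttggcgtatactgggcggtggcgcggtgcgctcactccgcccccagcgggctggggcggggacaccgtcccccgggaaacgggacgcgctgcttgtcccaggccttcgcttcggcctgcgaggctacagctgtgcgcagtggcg
DNAH1 holds the core 3 times, at positions 85, 146 and 154 of its window counted from its first base. BBS1 holds it once, at 252, IFT27 at 210 and IFT46 at 55. BBS2, IFT43 and IFT52 were also higher with each BLM siRNA used in either line, and their windows, not shown, do not hold the core. A match is a description of the letters and was not tested as a binding site, and a window without the letters says nothing on RFX binding. The DNAH7 window holds gttgcttagcaac, an inverted repeat close to GTTGCC and GGCAAC that the exact search does not count. Near matches were not searched in any window.

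With siRNA1 in A549, 23 of the 38 members tested were higher than control and 6 lower, with a median log2 fold change of 0.40. A gene was called higher or lower at a Benjamini-Hochberg adjusted p under 0.05 in edgeR's quasi-likelihood test, with the adjustment over all genes tested. Over all 15898 genes tested, 71.7% were called, 39% higher and 32.8% lower, with a median of 0.09, and since this contrast entered the choice of the genes nothing is read from the comparison of the shares. With siRNA2 the counts were again 23 higher and 6 lower of 38, with a median of 0.41 against 0.04 over all genes, where 60.9% of all genes were called, 32.5% higher and 28.4% lower. With siRNA3, 16 members were higher and 9 lower of 38, with a median of 0.16 (0.09 without replicate 1 of siRNA3, and 0.09 on log2(TPM + 1)) against 0.0025 over all genes, where 61.3% of all genes were called, 30.9% higher and 30.4% lower. The share of members called was 76.3% with siRNA2, and with siRNA3 it was 65.8%, near the background. In MDA-MB-231, siRNA1 gave 23 higher and 3 lower of 36, with a median of 0.32 against 0.01 over all genes, where 55.3% of all genes were called, 27.5% higher and 27.8% lower, and again nothing is read from these shares. The 3 A549 contrasts share their control libraries, so their counts are not independent. The 2 members not tested against control in A549 were DNAH12, which did not pass the filter on low counts, and DNAH7. In MDA-MB-231 they were DNAAF1, DNAH3, DNAH17-AS1 and DNAH7. The filter asked for 0.287 CPM in 3 libraries of the A549 fit. In A549 control DNAAF1 and DNAH2 reached it in 0 libraries and DNAH11 in 1, so these passed only through groups where they are high and had to differ, and their p-values against control support nothing. The counts above include their calls. DNAAF1 and DNAH2 reached it in 0 libraries of siRNA3 as well, and DNAH17-AS1 in 0 of siRNA2. On log2(TPM + 1) in place of counts, the split over all genes became 7689 higher and 3558 lower for A549 siRNA1, from 6196 and 5208, and 4971 higher and 3317 lower for MDA-MB-231, from 4208 and 4249.

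**Figure D1:**
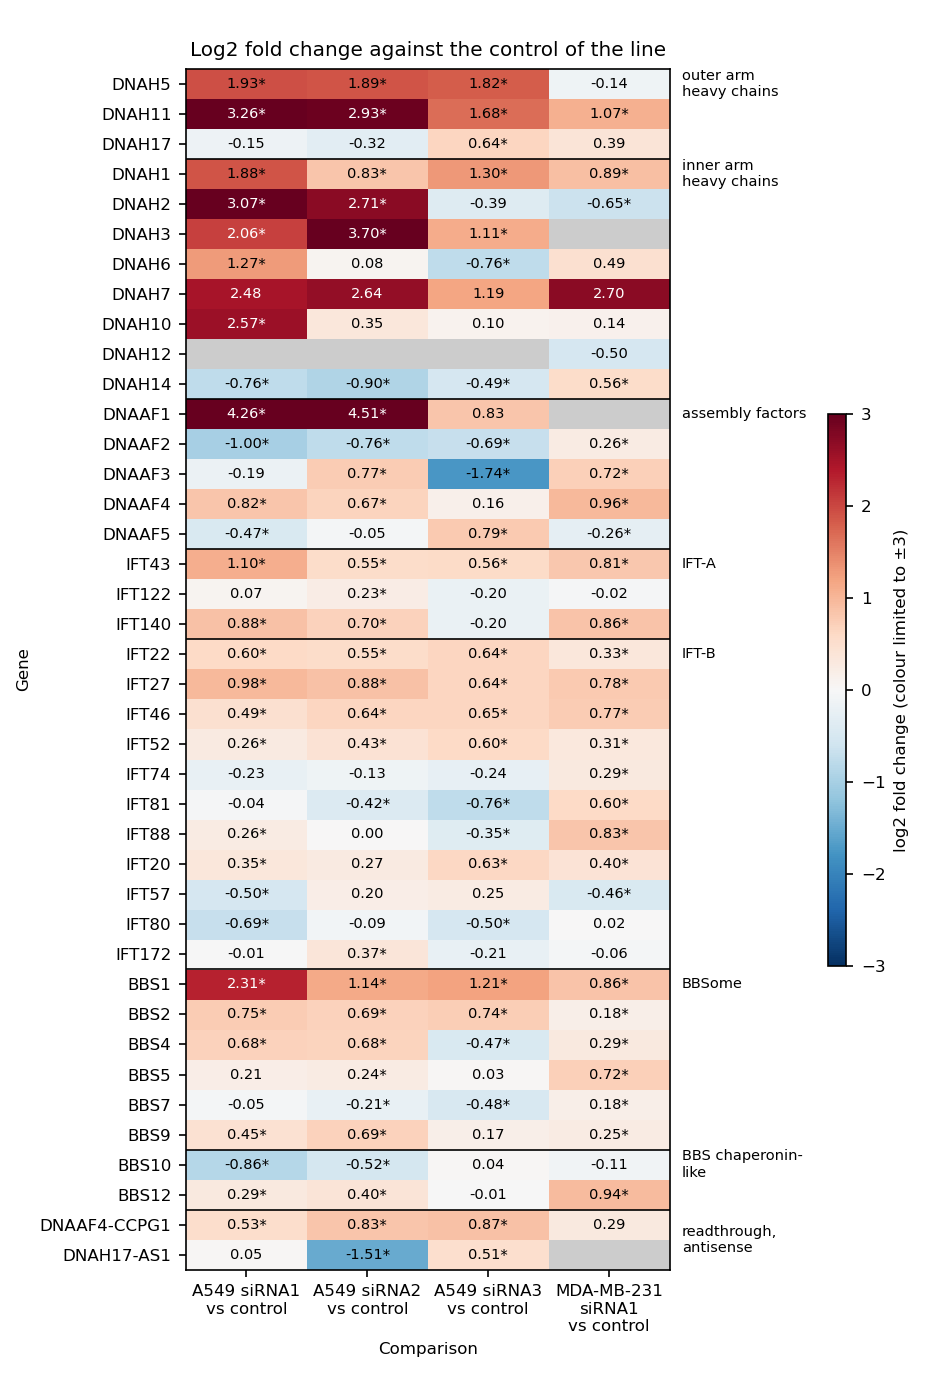
Log2 fold change against the control of the same line for the 40 members (rows, grouped by role) in the 4 siRNA groups (columns), from edgeR fits of 3 libraries a group, with red for higher and blue for lower. A star marks an adjusted p under 0.05, grey marks a gene not tested, and DNAH7 carries no star because it was not tested. Colour is limited to 3 in either direction, and the deepest red cells are those of heavy chains and of DNAAF1, at 4.26 and 4.51.

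Across the 4 siRNA against control comparisons, 9 of the 35 members tested in all of them were higher in every one and 0 were lower in every one. Of the 14300 genes tested in all 4, 5.98% were higher in every one and 7.38% lower in every one, and since the siRNA1 contrasts entered the choice of the genes nothing is read from the comparison with the members' 25.7%. The 9 were the BBSome subunits BBS1 and BBS2, the heavy chains DNAH1 and DNAH11, the IFT-A gene IFT43 and the IFT-B genes IFT22, IFT27, IFT46 and IFT52. DNAH11 passed the filter in A549 through the siRNA groups, so its A549 calls support nothing in this count or in the next. Within A549, 12 members were higher with all 3 siRNAs, and 2, DNAAF2 and DNAH14, were lower with all 3, of 38, where 14.9% and 13.9% of all 15898 genes were. Those 2 were among 11 members called in opposite directions in different comparisons (10 of the 35 tested in all 4, against 28.5% of all genes), the others being BBS4, BBS7, DNAAF3, DNAAF5, DNAH17-AS1, DNAH2, DNAH6, IFT81 and IFT88. In DNAH6 and DNAH17-AS1 one of the directions rests on the siRNA3 call, and in BBS7 on the MDA-MB-231 call, which were lost without single libraries. For DNAH17-AS1 these were replicates 1 and 2 of siRNA3 and replicates 2 and 3 of the control (adjusted p of 0.0929 to 0.122). The higher calls of DNAH2 with siRNA1 and siRNA2 in A549, and the lower call of DNAH17-AS1 with siRNA2, rest on the filter as given above. DNAH2 and DNAH17-AS1 thus add nothing to the count of opposite directions. The heatmap of members by siRNA shows both kinds side by side.

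One library stood apart and touches every value of siRNA3. Replicate 3 of A549 siRNA3 had deviations from its group mean with an SD of 0.321 in log2, where the other 17 libraries had 0.156 to 0.252. The deviation ran with transcript length (Spearman -0.683 across genes, which are not independent). Among the 10 members longer than 9000 bases it was the lowest of the 3 libraries in 7, with a median ratio of 0.721 to the mean of the other libraries. Among the 11 members of at most 2500 bases it was the highest in 8, with a median ratio of 1.26. No member called with siRNA3 lost its call without this library. Values that moved most among those called and not given below were, without it, 0.45 ± 0.09 for IFT20, 0.50 ± 0.09 for IFT27, 0.45 ± 0.08 for IFT52 and -1.96 ± 0.17 for DNAAF3.

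DNAH7, an inner arm heavy chain, lay in A549 at 2.68, 2.47 and 1.92 CPM in control, 13.5, 14.3 and 11.6 with siRNA1, 15.6, 14.1 and 14.2 with siRNA2 and 5.92, 5.94 and 4.22 with siRNA3. In MDA-MB-231 it lay at 0.679, 0.822 and 0.636 CPM in control and 4.61, 4.34 and 4.96 with siRNA1. Every library given a BLM siRNA lay above every control library of its line, by 5.57-fold, 6.21-fold and 2.28-fold in the group means of A549 and 6.51-fold in MDA-MB-231. The log2 fold changes were 2.48 ± 0.15, 2.64 ± 0.15, 1.19 ± 0.16 and 2.70 ± 0.16 in that order, and 1.33 ± 0.14 with siRNA3 when its replicate 3 was left out. The difference between the siRNA1 effects of the lines was -0.18 ± 0.23. It ran from -0.41 without replicate 2 of MDA-MB-231 control to -0.08 without replicate 1 of A549 control, and was 0.58 on log2(TPM + 1). Comparing siRNA2 with siRNA3, which the choice of the gene did not use, DNAH7 was higher with siRNA2 by 1.44 ± 0.14 (adjusted p = 1.43e-06), and by 1.3 ± 0.13 without replicate 3 of siRNA3.

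The outer arm heavy chains DNAH5 and DNAH11 rose in A549 with all 3 siRNAs. DNAH5, whose loss causes primary ciliary dyskinesia, was at 5.33, 5.20 and 4.65 CPM in A549 control, 19.4, 18.9 and 19.5 with siRNA1, 16.7, 19.6 and 19.98 with siRNA2 and 20.97, 21.03 and 11.6 with siRNA3. No siRNA library overlapped the controls, and apart from replicate 3 of siRNA3 all siRNA libraries lay between 16.7 and 21.03 CPM. The log2 fold changes were 1.93 ± 0.18, 1.89 ± 0.18 and 1.82 ± 0.18 (edgeR adjusted p = 5.31e-07, 1.28e-06 and 1.77e-06), the last becoming 2.05 ± 0.10 without replicate 3. In MDA-MB-231, DNAH5 was at 12.3, 13.2 and 13.1 CPM in control and 12.1, 11.2 and 11.8 with siRNA1, a log2 fold change of -0.14 ± 0.08 (adjusted p = 0.155). DNAH5 thus stood at a similar CPM in A549 with any BLM siRNA and was not called in the other line.

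DNAH11, an outer arm heavy chain of the proximal axoneme, started from a much lower level in A549. It was at 0.494, 0.215 and 0.204 CPM in A549 control, 2.53, 3.12 and 3.22 with siRNA1, 2.21, 2.59 and 2.24 with siRNA2 and 0.987, 0.935 and 1.02 with siRNA3. Every siRNA library lay above the controls, siRNA1 and siRNA2 overlapped each other, and siRNA3 lay between them and the controls. The log2 fold changes were 3.26 ± 0.25, 2.93 ± 0.26 and 1.68 ± 0.29, with no p given because DNAH11 passed the filter on low counts through the siRNA groups. In MDA-MB-231 it rose from 10.8, 9.97 and 12 CPM to 22.5, 23.7 and 22.96, by 1.07 ± 0.08 (adjusted p = 3.36e-06). Its model overlaps CDCA7L on the genome, and whether the authors' counting used the strand is not given in the sources used here. CDCA7L changed by -2.06 ± 0.10, 0.46 ± 0.09 and -0.31 ± 0.09 with the 3 siRNAs in A549 and -1.22 ± 0.05 with siRNA1 in MDA-MB-231, downward where DNAH11 went up except with siRNA2. The other outer arm member, DNAH17, was called only with siRNA3, at 3.78, 3.54 and 3.40 CPM against 2.45, 2.44 and 2.02 in control (0.64 ± 0.14, adjusted p = 0.00121). DNAH17-AS1, its antisense gene, fell with siRNA2 from 0.702, 0.590 and 0.562 CPM to 0.201, 0.233 and 0.209 (-1.51 ± 0.25), and reads of the pair cannot be told apart without strand. No p is given for this fall, because DNAH17-AS1 was below the filter in siRNA2.

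**Figure D2:**
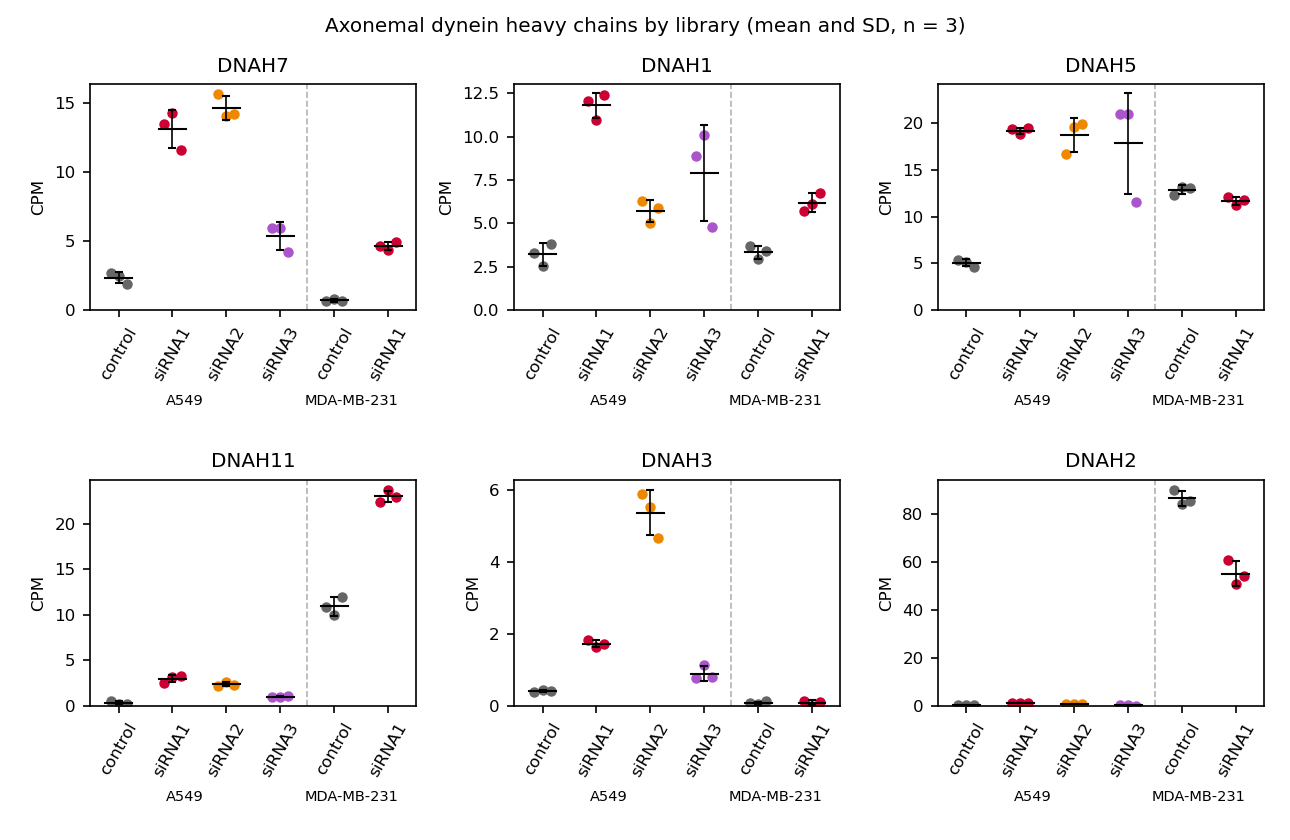
CPM of 6 dynein heavy chains in each library (points), with the group mean and SD as bars, for the 4 A549 and 2 MDA-MB-231 groups on linear axes that start at 0. DNAH7, DNAH5, DNAH1 and DNAH11 lie above A549 control in every siRNA library, DNAH3 is highest with siRNA2, and DNAH2 is high in MDA-MB-231 only.

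Of the inner arm heavy chains, DNAH1 rose with every siRNA in both lines. It was at 3.304, 2.52 and 3.81 CPM in A549 control, 12.1, 10.98 and 12.4 with siRNA1, 6.28, 5.01 and 5.86 with siRNA2 and 8.86, 10.1 and 4.76 with siRNA3, and in MDA-MB-231 at 3.69, 2.91 and 3.38 in control and 5.72, 6.09 and 6.77 with siRNA1. No siRNA library overlapped the controls of its line, although replicate 3 of siRNA3 came close. The log2 fold changes were 1.88 ± 0.22, 0.83 ± 0.23 and 1.3 ± 0.23 in A549 (adjusted p = 4.89e-06, 0.00671 and 0.000235) and 0.89 ± 0.13 in MDA-MB-231 (adjusted p = 0.000241). With siRNA3 the value was 1.56 ± 0.15 without replicate 3, the library in which DNAH1 was lowest of that group. DNAH1 is a long transcript and the group had the widest spread of the 6.

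DNAH2, DNAH3 and DNAH10 were nearly silent in A549 control and rose there with some of the siRNAs. DNAH3 was at 0.390, 0.429 and 0.409 CPM in A549 control, 1.81, 1.63 and 1.72 with siRNA1, 5.88, 5.53 and 4.67 with siRNA2 and 0.755, 1.14 and 0.783 with siRNA3, with log2 fold changes of 2.06 ± 0.20, 3.7 ± 0.19 and 1.11 ± 0.22 (adjusted p = 6.47e-07, 3.84e-09 and 0.000691). The libraries of siRNA2 stood above all others. DNAH2 was at 0.130, 0.107 and 0.102 CPM in A549 control, 0.944, 0.960 and 1.04 with siRNA1, 0.717, 0.786 and 0.778 with siRNA2 and 0.0871, 0.167 and 0 with siRNA3. These rest on few reads, 13 counts summed over the 3 controls against 112 with siRNA1 and 78 with siRNA2. The ratios per library total were 9.53 (95% exact interval 5.35 to 18.5) and 6.98 (3.85 to 13.7), intervals that cover counting error only. The fitted changes were 3.07 ± 0.38 and 2.71 ± 0.40, with no p given because DNAH2 passed the filter on low counts only through siRNA1 and siRNA2.

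In MDA-MB-231, DNAH2 was the most abundant heavy chain in CPM and fell with siRNA1. It went from 89.96, 84.1 and 85.7 CPM to 60.8, 50.7 and 54.1, a change of -0.65 ± 0.07 (adjusted p = 4.18e-05), with no overlap between the groups. DNAH10 was at 0.338, 0.322 and 0.434 CPM in A549 control and 2.31, 2.37 and 1.88 with siRNA1, a rise of 2.57 ± 0.32 (adjusted p = 7.44e-06). It was not called with siRNA2 (0.35 ± 0.39), siRNA3 (0.10 ± 0.40) or in MDA-MB-231 (0.14 ± 0.26). DNAH6 rose with siRNA1, from 1.64, 1.42 and 1.41 to 3.48, 4.32 and 2.97 CPM (1.27 ± 0.22, adjusted p = 0.000143), and fell with siRNA3 to 0.755, 1.04 and 0.851 CPM (-0.76 ± 0.26, adjusted p = 0.0193). The fall was no longer called without replicate 1 of siRNA3 or replicate 1 of the control, where adjusted p was 0.0612 to 0.0732 and the change -0.69 to -0.66. DNAH6 was thus the inner arm chain with opposite calls for different siRNAs in A549.

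DNAH14 and DNAH12 did not follow the other heavy chains. DNAH14 was at 19.9, 19.9 and 15.6 CPM in A549 control, 10.5, 13.5 and 8.67 with siRNA1, 9.09, 8.82 and 11.7 with siRNA2 and 13.1, 12.9 and 13.4 with siRNA3, and in MDA-MB-231 it was at 14.7, 13.8 and 18.2 in control and 21.9, 23 and 24.1 with siRNA1. It fell in A549, with log2 fold changes of -0.76 ± 0.15, -0.90 ± 0.16 and -0.49 ± 0.15 (adjusted p = 0.000571, 0.000211 and 0.0133), and rose in MDA-MB-231, by 0.56 ± 0.10 (adjusted p = 0.00107). The call with siRNA3 was lost without replicate 1 of the control (-0.43, adjusted p = 0.0517). The mean length behind its deposited values was 1695 bases, whereas the other heavy chain members ran from 9576 to 15573 bases. DNAH12 passed the filter in MDA-MB-231 only, at 0.776, 0.7196 and 0.694 CPM in control and 0.414, 0.512 and 0.620 with siRNA1 (-0.50 ± 0.25, adjusted p = 0.118).

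The assembly factors moved in both directions. DNAAF1, a leucine-rich repeat protein needed to preassemble dynein arms, was listed at 0, 0.134 and 0.0255 CPM in A549 control, 0.894, 1.39 and 0.926 with siRNA1, 1.32, 1.34 and 1.14 with siRNA2 and 0.145, 0.0668 and 0.0681 with siRNA3. The summed counts were 6 in control, 122 with siRNA1 and 130 with siRNA2, ratios of 22.5 (95% exact interval 10.0 to 62.5) and 25.2 (11.3 to 70.0), intervals for counting error only, while most of the control counts lay in replicate 2. The fitted rises were 4.26 ± 0.51 and 4.51 ± 0.50, and with siRNA3 the value was 0.83 ± 0.80, not called. No p is given, because DNAAF1 passed the filter on low counts only through siRNA1 and siRNA2. Without replicate 2 of the control the fitted values for siRNA1 and siRNA2 were 6.02 and 6.27, and without replicate 1 they were 3.7 and 3.95. DNAAF1 overlaps TAF1C, which was not called in A549 with any siRNA.

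DNAAF2, which acts with heat shock chaperones in the same process, went the other way in A549. It was at 28.9, 28.9 and 25.1 CPM in A549 control, 13.7, 14.1 and 13.6 with siRNA1, 15.2, 15.1 and 18.6 with siRNA2 and 17.3, 18.9 and 15.3 with siRNA3, and in MDA-MB-231 at 33.1, 30.8 and 30.7 in control and 36.3, 38.7 and 37.9 with siRNA1. The log2 fold changes in A549 were -1.0 ± 0.10, -0.76 ± 0.10 and -0.69 ± 0.10 (adjusted p = 1.31e-06, 2.67e-05 and 6.77e-05), against a rise of 0.26 ± 0.06 in MDA-MB-231 (adjusted p = 0.00494). DNAAF3, a cytoplasmic assembly protein, differed in direction between the siRNAs. It was at 6.06, 5.85 and 6.44 CPM in control, 5.99, 4.29 and 5.83 with siRNA1, 10.5, 10.1 and 10.7 with siRNA2 and 1.39, 1.77 and 2.35 with siRNA3. It rose with siRNA2 (0.77 ± 0.15, adjusted p = 0.000491), fell with siRNA3 (-1.74 ± 0.17, adjusted p = 1.41e-06) and was not called with siRNA1 (-0.19 ± 0.15).

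DNAAF4 and DNAAF5 differed again. DNAAF4 rose with siRNA1 in both lines, by 0.82 ± 0.16 in A549 and 0.96 ± 0.15 in MDA-MB-231 (adjusted p = 0.000392 and 0.000499), and with siRNA2 by 0.67 ± 0.16 (adjusted p = 0.00270). DNAAF5, a HEAT repeat protein, was at 71.3, 75.0 and 80.3 CPM in A549 control, 56.1, 49.2 and 58.5 with siRNA1 and 136, 121 and 135 with siRNA3. It fell with siRNA1 (-0.47 ± 0.08, adjusted p = 0.000216) and rose with siRNA3 (0.79 ± 0.08, adjusted p = 2.93e-06). In MDA-MB-231 it fell (-0.26 ± 0.06, adjusted p = 0.00425). The readthrough gene DNAAF4-CCPG1 lay between 0.29 and 0.87. Its call with siRNA1 in A549 (adjusted p = 0.0206) was lost without replicate 2 of siRNA1 or replicate 1 or 3 of the control (adjusted p of 0.0889 to 0.0908). CCPG1, which shares its reads, changed by 0.26 ± 0.14, -0.92 ± 0.14 and -0.56 ± 0.14 with siRNA1, siRNA2 and siRNA3 in A549. In MDA-MB-231 CCPG1 was at 0.01 ± 0.06. No assembly factor was called in the same direction in all 4 comparisons.

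Among the 3 IFT-A members, IFT43 and IFT140 rose with siRNA1 in both lines. IFT43, a small subunit of the complex, was at 15.7, 14.9 and 12.9 CPM in A549 control, 33.4, 27.6 and 31.9 with siRNA1, 22.1, 22.3 and 19.0 with siRNA2 and 19.1, 20.3 and 24.8 with siRNA3, and in MDA-MB-231 at 7.86, 8.53 and 6.39 in control and 12.5, 14.3 and 13.1 with siRNA1. The rises were 1.1 ± 0.12, 0.55 ± 0.12, 0.56 ± 0.12 and, in MDA-MB-231, 0.81 ± 0.11 (adjusted p = 1.87e-06, 0.00135, 0.00108 and 0.000224). IFT43 is the shortest member, at 838 bases, and its siRNA3 value was 0.44 ± 0.11 without replicate 3. IFT140, a large subunit, rose by 0.88 ± 0.14 with siRNA1, 0.70 ± 0.14 with siRNA2 and 0.86 ± 0.07 in MDA-MB-231 (adjusted p = 9.51e-05, 0.000886 and 9.48e-06). With siRNA3 it was at 21.2, 22.8 and 13.7 CPM against 22.2, 20.8 and 23.2 in control, -0.20 ± 0.15 with replicate 3 and -0.01 ± 0.09 without it.

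The 11 IFT-B members gave 6 higher and 2 lower with siRNA1 in A549, 5 and 1 with siRNA2, 5 and 3 with siRNA3, and 8 and 1 in MDA-MB-231. Of all genes, 39% were higher and 32.8% lower with siRNA1 in A549, and 32.5% and 28.4% with siRNA2. The shares were 30.9% and 30.4% with siRNA3, and 27.5% and 27.8% in MDA-MB-231. Nothing is read from counts of so few genes. IFT27, a small GTPase of the complex, was at 7.52, 8.07 and 7.71 CPM in A549 control, 16.1, 13.9 and 16.02 with siRNA1, 14.7, 14.6 and 13.6 with siRNA2 and 10.6, 11.3 and 14.4 with siRNA3, and in MDA-MB-231 at 3.59, 3.91 and 3.88 in control and 6.48, 7.04 and 6.09 with siRNA1. All siRNA libraries lay above the controls, with rises of 0.98 ± 0.11, 0.88 ± 0.11, 0.64 ± 0.11 and 0.78 ± 0.11 (adjusted p = 2.93e-06, 1.45e-05, 0.000259 and 0.000216). IFT46, a core subunit, rose by 0.49 ± 0.09, 0.64 ± 0.09 and 0.65 ± 0.09 with the 3 siRNAs in A549 and 0.77 ± 0.07 with siRNA1 in MDA-MB-231, from 21.7, 23.9 and 21.1 to 38.1, 40.02 and 35.7 CPM. IFT22, also a small GTPase, rose by 0.60 ± 0.10, 0.55 ± 0.10 and 0.64 ± 0.10 and by 0.33 ± 0.08 in MDA-MB-231. IFT52, a core subunit, rose by 0.26 ± 0.11, 0.43 ± 0.11 and 0.60 ± 0.11 and by 0.31 ± 0.08 in MDA-MB-231. Its call with siRNA1 in A549 (adjusted p = 0.0385) was lost without any library other than replicate 2 of siRNA1, at adjusted p of 0.0568 to 0.125, with values from 0.22 to 0.29.

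IFT57, IFT80, IFT81 and IFT88 held the falls. IFT57, an IFT-B subunit of the peripheral part, fell with siRNA1 in both lines, from 47.2, 50.4 and 44.3 to 33.7, 34.0 and 32.5 CPM in A549 (-0.50 ± 0.11, adjusted p = 0.00110) and from 27.1, 29.9 and 32.9 to 21.96, 22.2 and 20.99 CPM in MDA-MB-231 (-0.46 ± 0.08, adjusted p = 0.000677). With siRNA2 and siRNA3 it was at 0.20 ± 0.11 and 0.25 ± 0.11, not called. IFT80 fell with siRNA1 (-0.69 ± 0.13) and siRNA3 (-0.50 ± 0.13) in A549 (adjusted p = 0.000404 and 0.00523). IFT81, which binds tubulin cargo, fell with siRNA2 (-0.42 ± 0.09) and siRNA3 (-0.76 ± 0.09) and rose in MDA-MB-231 (0.60 ± 0.08), with adjusted p of 0.00161, 1.20e-05 and 0.000106. IFT88, required for ciliogenesis, rose in MDA-MB-231 from 17.6, 18.5 and 20.9 to 33.6, 34.7 and 33.3 CPM (0.83 ± 0.07, adjusted p = 1.04e-05) and fell with siRNA3 in A549 (-0.35 ± 0.08, adjusted p = 0.00188). The other IFT members, IFT20, IFT74, IFT122 and IFT172, lay between -0.24 and 0.63 in the 4 comparisons.

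**Figure D3:**
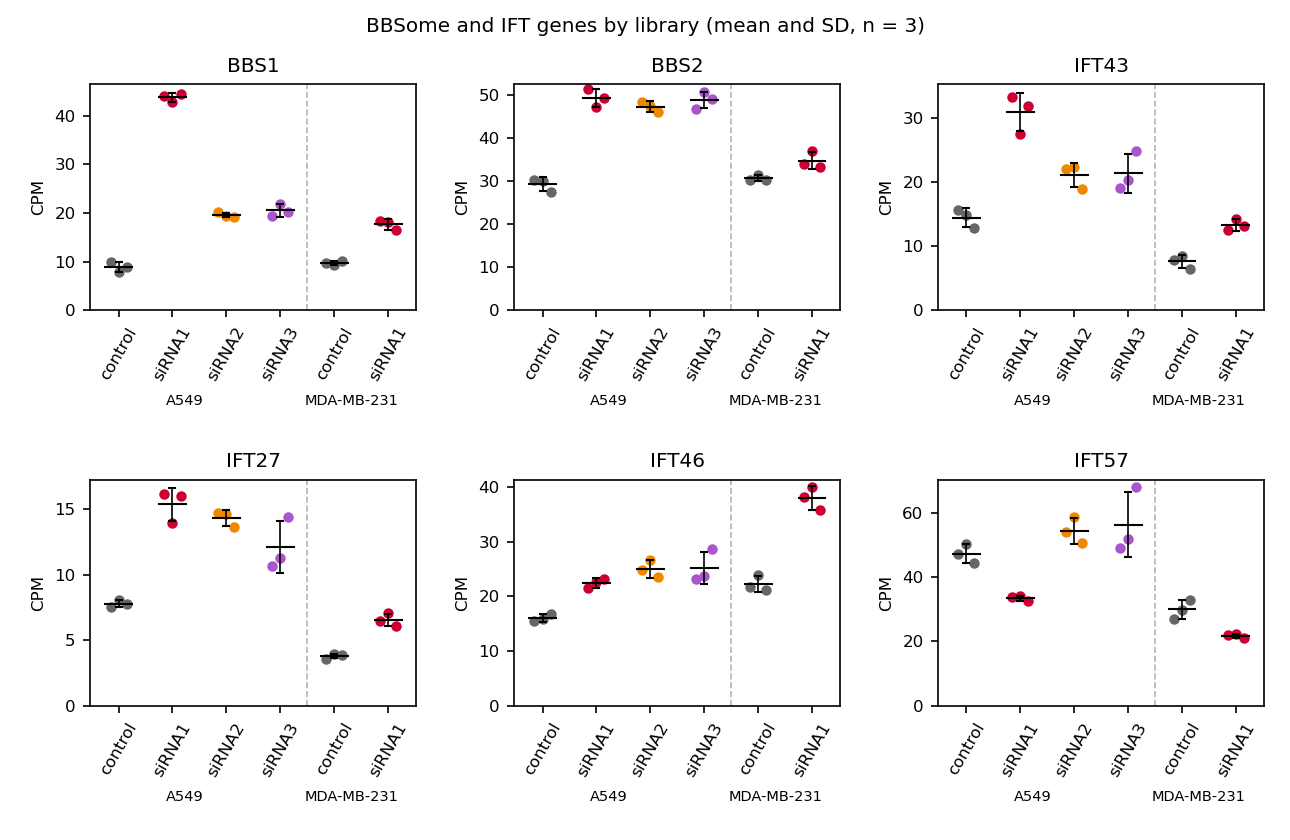
CPM of BBS1, BBS2, IFT43, IFT27, IFT46 and IFT57 in each library (points), with the group mean and SD as bars, on linear axes that start at 0. BBS1 with siRNA1 in A549, at 42.9 to 44.6 CPM, is set apart from all other groups, and IFT57 is the panel in which the siRNA1 libraries lie below the controls of both lines.

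Among the IFT and BBS genes in these 4 comparisons, the largest change was that of BBS1 with siRNA1 in A549. BBS1, the BBSome subunit most often mutated in the syndrome, was at 9.99, 7.80 and 8.79 CPM in A549 control, 44.1, 42.9 and 44.6 with siRNA1, 20.1, 19.5 and 19.2 with siRNA2 and 19.4, 21.9 and 20.3 with siRNA3, and in MDA-MB-231 at 9.73, 9.29 and 10.2 in control and 18.3, 18.2 and 16.4 with siRNA1. No siRNA library overlapped a control library of its line. The rises were 2.31 ± 0.09, 1.14 ± 0.09 and 1.21 ± 0.09 in A549 (adjusted p = 9.52e-11, 2.26e-07 and 1.18e-07) and 0.86 ± 0.08 in MDA-MB-231 (adjusted p = 1.46e-05). BBS1 overlaps ZDHHC24, which changed by 0.54 ± 0.10, -0.75 ± 0.11 and -0.07 ± 0.11 with the 3 siRNAs in A549 and 0.03 ± 0.14 with siRNA1 in MDA-MB-231, less than BBS1 in each case and downward with siRNA2.

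BBS2, another BBSome subunit, rose to a similar level with each siRNA in A549, from 30.3, 29.95 and 27.4 CPM in control to 51.2, 47.1 and 49.3 with siRNA1, 48.3, 47.3 and 45.9 with siRNA2 and 46.7, 50.5 and 49.0 with siRNA3. The rises were 0.75 ± 0.07, 0.69 ± 0.07 and 0.74 ± 0.07 (adjusted p = 4.87e-07, 2.11e-06 and 1.11e-06). In MDA-MB-231 BBS2 was higher by 0.18 ± 0.06 (adjusted p = 0.0329), a call lost without replicate 1 or 2 of either group (adjusted p of 0.0526 to 0.130). BBS4, which links the BBSome to the pericentriolar satellites, was at 41.6, 41.6 and 40.2 CPM in A549 control, 66.1, 65.3 and 66.8 with siRNA1, 68.1, 68.9 and 60.4 with siRNA2 and 28.1, 30.8 and 30.4 with siRNA3. It rose with siRNA1 and siRNA2, by 0.68 ± 0.07 and 0.68 ± 0.07, and fell with siRNA3, with -0.47 ± 0.07 (adjusted p = 1.41e-06, 2.89e-06 and 8.74e-05). BBS5 lay between 0.03 and 0.72 in the 4 comparisons. In MDA-MB-231 all 6 BBSome members were called higher, by 0.18 to 0.86, where 27.5% of all genes were. This contrast entered the choice of the genes, so nothing is read from the count in MDA-MB-231. The calls of BBS4 (0.29 ± 0.08), BBS7 (0.18 ± 0.06) and BBS9 (0.25 ± 0.08) there were also lost without single libraries, at adjusted p of 0.0657 to 0.134. For BBS4 these were replicate 3 of siRNA1 and replicate 1 of the control, for BBS7 every siRNA1 library and replicate 1 of the control, and for BBS9 replicates 1 and 2 of both groups.

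The chaperonin-like genes diverged. BBS10 fell with siRNA1 in A549, from 24.7, 22.5 and 20.3 to 12.1, 15.3 and 9.78 CPM (-0.86 ± 0.19, adjusted p = 0.00103). With siRNA2 it was at 13.1, 13.5 and 20.6 CPM (-0.52 ± 0.19, adjusted p = 0.0284), where replicate 3 overlapped the controls and the call was lost without replicate 1 or 2 of siRNA2 or of the control (adjusted p of 0.0587 to 0.117). BBS12 rose in MDA-MB-231 from 7.18, 7.23 and 7.03 to 14.8, 12.7 and 13.7 CPM (0.94 ± 0.09, adjusted p = 1.45e-05) and in A549 with siRNA2 (0.40 ± 0.10, adjusted p = 0.00366).

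The siRNAs were also compared with each other in A549. Between siRNA1 and siRNA2, 8 members were higher and 7 lower with siRNA1 of 38 tested, a share of 39.5% where 56% of all genes were called, 28.6% higher and 27.4% lower. On log2(TPM + 1) the split was 14 higher and 5 lower, and that of all genes moved from 4553 and 4352 to 5885 and 3097. The highest with siRNA1 were DNAH10 (2.22 ± 0.31), DNAH17-AS1 (1.56 ± 0.24) and DNAH6 (1.19 ± 0.22), and the lowest were DNAH3 (-1.64 ± 0.16), DNAAF3 (-0.96 ± 0.15) and IFT57 (-0.70 ± 0.11). Adjusted p ran from 1.11e-06 for DNAH3 to 0.000418 for DNAH6. No p is given for DNAH17-AS1, which was below the filter in siRNA2, although it is counted among the 8. BBS1 was also higher with siRNA1 than with siRNA2, by 1.16 ± 0.09, whereas DNAH5 and BBS2 differed by 0.04 ± 0.17 and 0.06 ± 0.07, not called. Of the 9 genes higher in every comparison with control, BBS1, DNAH1 and IFT43 were called higher with siRNA1 than with siRNA2, and none was called lower.

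Between siRNA1 and siRNA3, 20 members were higher and 6 lower with siRNA1, of 38, where 66.6% of all genes were called, 34.4% higher and 32.3% lower. On log2(TPM + 1) the split of all genes moved from 5467 and 5129 to 7313 and 3219, and that of the members to 24 and 5. DNAH2 (3.47 ± 0.42), DNAAF1 (3.43 ± 0.48) and DNAH10 (2.47 ± 0.33) were the highest, and DNAAF5 (-1.26 ± 0.09), BBS10 (-0.90 ± 0.19) and DNAH17 (-0.78 ± 0.14) the lowest. Between siRNA2 and siRNA3, where DNAH7 is included, 18 were higher and 6 lower with siRNA2, of 39, where 59% of all genes were called, 30.1% higher and 28.9% lower. DNAAF1 (3.68 ± 0.47), DNAH2 (3.1 ± 0.44) and DNAH3 (2.59 ± 0.17) were the highest, and DNAH17-AS1 (-2.03 ± 0.24), DNAH17 (-0.96 ± 0.14) and DNAAF5 (-0.84 ± 0.08) the lowest. DNAAF1 and DNAH2 reached the filter in 0 libraries of siRNA3, and DNAH17-AS1 in 0 of siRNA2, so no p is given for them, although the counts above include their calls. The others named had adjusted p of at most 0.000901 in edgeR's test. DNAAF1 and DNAH2 were among the 3 highest in both comparisons, and neither was called with siRNA3 against control.

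The siRNA1 effect differed between the lines for 22 of the 39 members tested, by the interaction term of the edgeR fit, 12 more positive in A549 and 10 more negative, where 57.8% of all genes were called, 30.8% more positive and 27% more negative. The members' share of 56.4% is near that background. On log2(TPM + 1) the split was 15 and 9 for the members, and over all genes 6621 and 3855 against 5158 and 4515. With a filter of 1 CPM in 3 libraries the members' split was 9 and 13, and their median turned from 0.09 to -0.06. Without replicate 2 or replicate 3 of MDA-MB-231 siRNA1 the split was 9 and 12 in each case, with medians of -0.03 and -0.04, and that of all genes was 4328 and 5123 or 4289 and 5055. DNAH2, DNAH12, DNAAF1, DNAH11, DNAH3 and DNAH17-AS1 passed the filter here only through some of the 4 groups, so their p-values support nothing. DNAH2, DNAH12, DNAAF1 and DNAH11 are among the 12 called more positive, so the counts and the share above include calls that support nothing. The most positive were DNAH2 (3.77 ± 0.25), which rose in A549 and fell in MDA-MB-231, DNAAF1 (3.04 ± 1.21) and DNAH10 (2.48 ± 0.34, adjusted p = 1.43e-05). No p is given for DNAH2 and DNAAF1, because of the filter. The DNAAF1 value rests on few reads and moved between 2.48 and 4.81 when single libraries were left out. The call was lost without replicate 2 of A549 siRNA1, replicate 1 or 3 of A549 control, replicate 2 or 3 of MDA-MB-231 siRNA1, or any MDA-MB-231 control library. DNAH5 (2.11 ± 0.11, adjusted p = 4.16e-10) had the smallest p, from a rise in A549 and no call in MDA-MB-231. The most negative were DNAH14 (-1.28 ± 0.20, adjusted p = 6.39e-05), DNAAF2 (-1.21 ± 0.10, adjusted p = 6.97e-08) and DNAAF3 (-0.86 ± 0.18, adjusted p = 0.000684). The DNAH14 and DNAAF2 effects have opposite signs in the lines, falling in A549 and rising in MDA-MB-231. BLM itself fell further in A549 than in MDA-MB-231 (-3.23 ± 0.12), and the part of this in the members' differences was not tested. IFT57, IFT43, IFT140, IFT27 and IFT46 were not called in the interaction, with differences from -0.24 to 0.33.

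**Figure D4:**
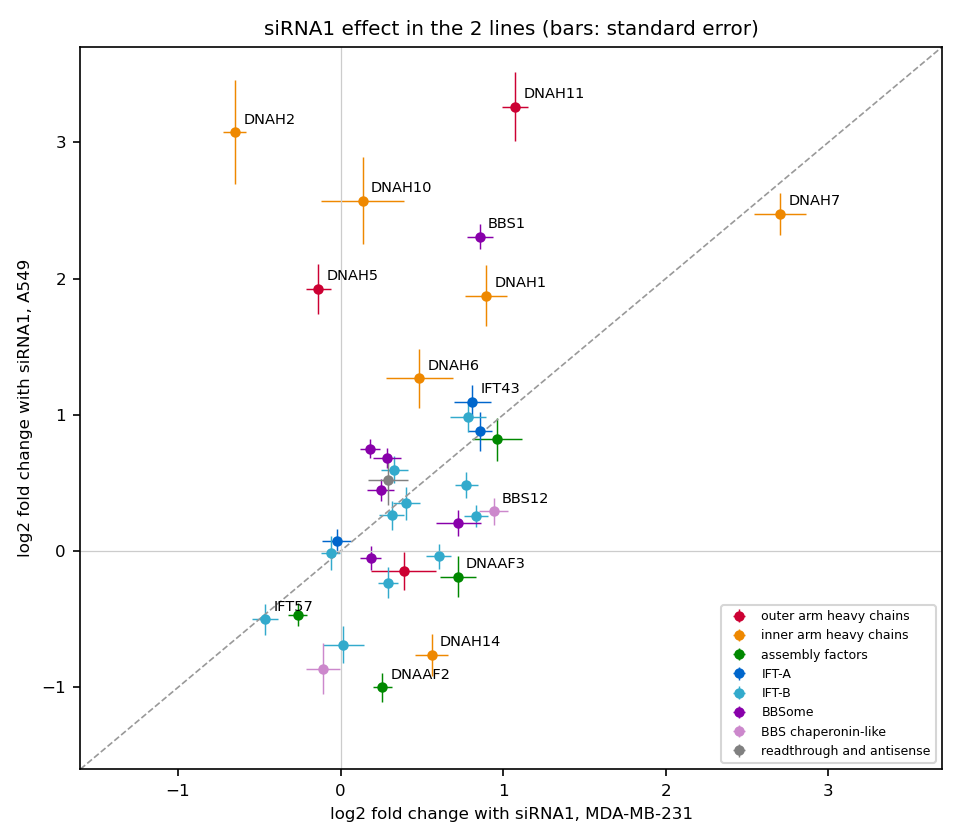
Log2 fold change with siRNA1 against control in MDA-MB-231 (horizontal) and in A549 (vertical) for the members that passed the filter in both lines, each point being 1 gene coloured by role, with standard errors as bars and a dashed line where the effects are equal. DNAH2 lies at the upper left, DNAAF2 and DNAH14 lie below 0 in A549 and above 0 in MDA-MB-231, and DNAH7 lies near the dashed line.

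Levels before BLM siRNA were compared as TPM between genes. In A549 control the 11 IFT-B members had a median of 24.1 TPM, the 3 IFT-A members 15.3 TPM and the 6 BBSome members 11.6 TPM. The 8 inner arm heavy chains had a median of 0.137 TPM and the 3 outer arm heavy chains 0.303 TPM, with DNAH14 at 28.1 TPM as the exception, on the short length given above. In MDA-MB-231 control the IFT-B median was 20.5 TPM, and the heavy chains DNAH2 and DNAH5 were the ones with most transcripts after DNAH14. With siRNA1, the inner arm median was 0.482 TPM in A549 and 0.542 TPM in MDA-MB-231, still below the medians of the IFT groups.

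Between the control lines, 22 members were higher and 7 lower in A549, of 38, where 82% of all genes were called, 40.7% higher and 41.3% lower. On log2(TPM + 1) the split was 19 and 13, and that of all genes moved from 6435 higher and 6536 lower to 4953 and 7870. The lowest in A549 were DNAH2 (-9.48 ± 0.14), DNAH11 (-5.10 ± 0.22) and DNAH12 (-2.60 ± 0.39). DNAH17-AS1 (4.19 ± 0.48), DNAH3 (2.47 ± 0.46) and BBS4 (1.97 ± 0.08) were the highest in A549, with an adjusted p of 7.15e-11 for BBS4. The other 5 of these passed the filter only through the line where they are high and had to differ, so no p is given for them. The counts above include their calls. The mean expected counts in A549 and MDA-MB-231 control were 4.33 and 2733 for DNAH2, 4.33 and 23 for DNAH12, 23.7 and 1 for DNAH17-AS1, and 15.7 and 2.33 for DNAH3, and DNAH11 reached the filter's 0.269 CPM in 1 of 3 A549 control libraries. BBS1, BBS2, IFT52 and DNAH1, all higher with every siRNA, did not differ beyond the spread between the controls, with values of -0.08 ± 0.11, -0.01 ± 0.08, -0.02 ± 0.09 and 0.00 ± 0.18. DNAH2 and DNAH11 were thus present in MDA-MB-231 and nearly absent from A549 before any BLM siRNA.

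**Figure D5:**
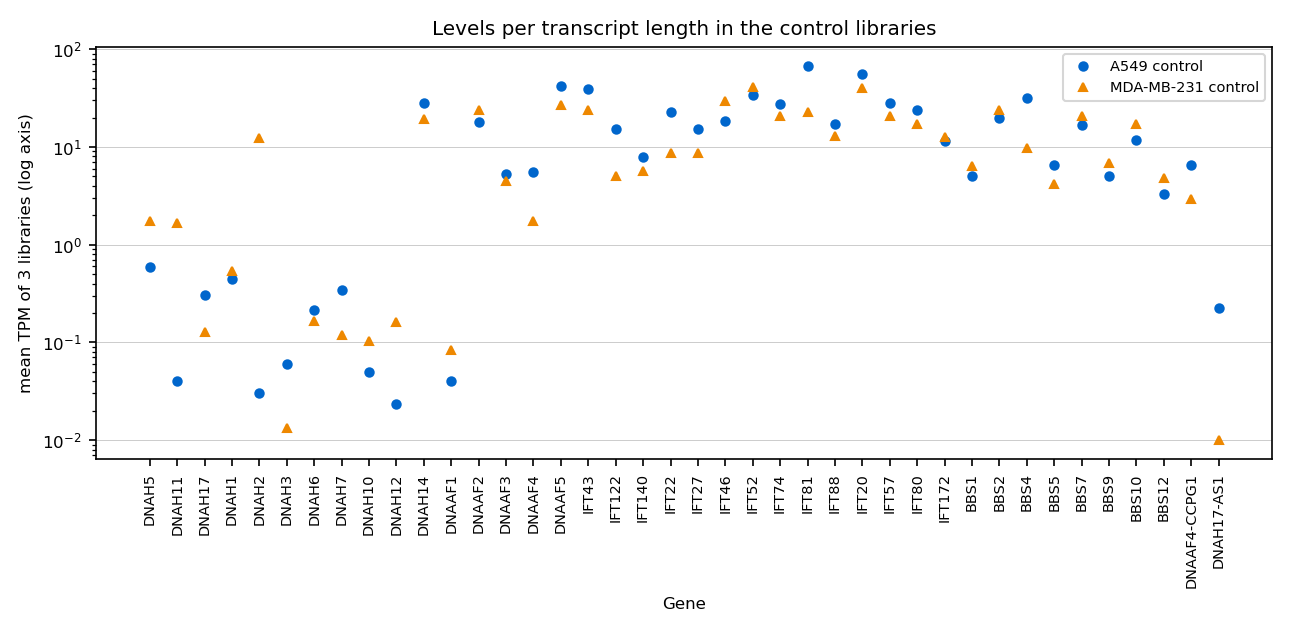
Mean TPM of each member in A549 control and MDA-MB-231 control (points, 3 libraries each) on a logarithmic axis, ordered by role. IFT and BBS genes lie above all heavy chains but DNAH14 and, in MDA-MB-231, DNAH2, and the widest gap between the lines is that of DNAH2, at 0.03 TPM in A549 and 12.2 TPM in MDA-MB-231.

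Other ciliary genes, from lists of symbols outside the naming patterns above, are given for comparison as counts and medians without a test of the lists. Of all genes tested in A549, 39% were higher and 32.8% lower with siRNA1, and 32.5% and 28.4% with siRNA2. With siRNA3 the shares were 30.9% and 30.4%, and in MDA-MB-231 27.5% and 27.8%. These shares stand beside every list below, and nothing is read from the counts against them. Of 20 other axonemal dynein, docking, assembly and radial spoke genes tested in A549, 16 were higher and none lower with siRNA1, 10 and 2 with siRNA2, and 6 and 1 with siRNA3, and 13 and 1 of 21 in MDA-MB-231. The medians were 0.87, 0.67, 0.18 and 0.63. Among them, RSPH1, a radial spoke head protein, rose by 3.49 ± 0.25, 2.94 ± 0.25 and 0.92 ± 0.31 with the 3 siRNAs in A549 and 1.45 ± 0.25 with siRNA1 in MDA-MB-231. HYDIN, of the central pair apparatus, rose by 3.32 ± 0.21, 2.67 ± 0.22 and 1.48 ± 0.11 with siRNA1, siRNA2 and in MDA-MB-231, and was at -0.04 ± 0.28 with siRNA3. LRRC6, an assembly factor outside the naming patterns, rose by 2.09 ± 0.10, 2.27 ± 0.10, 0.51 ± 0.10 and 0.90 ± 0.11 (adjusted p = 4.24e-10, 1.30e-09, 0.000836 and 8.49e-05). In this list siRNA3 gave the fewest calls of the A549 siRNAs.

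The 15 other subunits of the IFT and BBS complexes had more lower than higher calls in A549. Of these, 3 were higher and 10 lower with siRNA1, 3 and 8 with siRNA2, 1 and 7 with siRNA3, and 6 and 2 in MDA-MB-231, with medians of -0.60, -0.28, -0.22 and 0.08. TTC21B, an IFT-A subunit, fell, with log2 fold changes of -1.02 ± 0.07, -0.70 ± 0.07 and -0.84 ± 0.07 in A549 and was at -0.00 ± 0.07 in MDA-MB-231. HSPB11, an IFT-B subunit, fell, with log2 fold changes of -1.12 ± 0.15, -0.86 ± 0.15 and -0.52 ± 0.15 in A549 and -0.33 ± 0.07 in the other line. TTC30A, also of IFT-B, rose by 0.98 ± 0.09 with siRNA1 in A549 and 1.15 ± 0.10 in MDA-MB-231. Subunits of the same complexes therefore did not share a direction, and the counts of IFT and BBS members depend on which symbols the naming patterns take in.

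The 9 ciliary transport motors gave 6 higher and 2 lower with siRNA1 in A549, 4 and 2 with siRNA2, 3 and 3 with siRNA3, and 5 and 1 in MDA-MB-231. DYNC2H1, the heavy chain of the retrograde motor, rose with siRNA1 (0.63 ± 0.16), siRNA3 (1.12 ± 0.16) and in MDA-MB-231 (0.38 ± 0.05), and KIF3A, of the anterograde kinesin, fell in A549 (-0.93 ± 0.14, -0.44 ± 0.14 and -0.76 ± 0.14). The 18 transition zone genes gave 7 and 5, 7 and 2, 2 and 6, and 10 and 4 in the same order. The 17 genes of cytoplasmic dynein and dynactin, which work outside cilia, gave 8 and 2, 9 and 3, and 8 and 2 in A549, and 4 and 6 of 16 in MDA-MB-231. DYNLT1, a light chain among them, fell with siRNA1 in both lines (-3.71 ± 0.16 and -2.77 ± 0.09), was at -0.09 ± 0.14 with siRNA2 and rose by 0.64 ± 0.14 with siRNA3.

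Of 10 ciliary transcription regulators tested, 2 were higher and 6 lower with siRNA1 in A549, 2 and 4 with siRNA2, 2 and 4 with siRNA3, and 4 and 4 in MDA-MB-231. RFX3, an activator of ciliary genes, rose by 1.16 ± 0.17, 1.13 ± 0.17 and 1.47 ± 0.17 with the 3 siRNAs in A549 and 0.61 ± 0.13 with siRNA1 in MDA-MB-231 (adjusted p = 4.07e-05, 7.65e-05, 7.29e-06 and 0.00311). FOXJ1, the regulator of motile cilia, rose with siRNA1 (2.08 ± 0.36) and siRNA2 (2.56 ± 0.35) and was at -0.22 ± 0.48 with siRNA3. MCIDAS, which starts the multiciliated programme upstream of FOXJ1, fell, with log2 fold changes of -1.52 ± 0.25, -0.66 ± 0.24 and -1.06 ± 0.25 with the 3 siRNAs in A549 and -0.67 ± 0.14 with siRNA1 in MDA-MB-231. FOXJ1 and HYDIN were thus each called higher with siRNA1 and siRNA2 and not called with siRNA3 in A549. FOXJ1 was at a mean of only 0.19 TPM in A549 control and 0.167 TPM with siRNA3. Its calls may therefore follow from the filter on low counts, and nothing is read from them. Libraries that reached the filter were counted for the members only. Among the members, BBS9, BBS12, DNAAF4 and IFT140 were also called higher with siRNA1 and siRNA2 and not called with siRNA3. The BBS12 call with siRNA1 was lost without replicate 1 of siRNA1 or replicate 2 of the control (edgeR adjusted p of 0.0637 to 0.0666). DNAAF1 and DNAH2 had the same calls, but passed the filter only through siRNA1 and siRNA2, so their calls add nothing.

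Markers of multiciliated cells were measured as well. The 9 markers summed to 17.2 to 20.5 TPM in A549 control, 49.1 to 67.1 with siRNA1, 21.9 to 25.9 with siRNA2 and 26.7 to 32.4 with siRNA3, and to 5.07 to 6.01 in MDA-MB-231 control and 5.46 to 5.91 with siRNA1. Most of the A549 sum was TPPP3, at a mean of 13.1 TPM in control and 48.4 TPM with siRNA1. SNTN and TEKT1, markers of the finished cilium, were at 0 in all 12 A549 libraries, and FOXJ1 and TEKT1 were at 0 in all 3 MDA-MB-231 controls. FOXJ1 was at a mean of 0.19 TPM in A549 control, 0.973 with siRNA1 and 1.21 with siRNA2. PIFO went from a mean of 0.09 TPM to 1.43 and 0.887 with these siRNAs and was at 0.043 with siRNA3, and CAPS went from 1.12 to 4.28, 3.397 and 2.297 with the 3 siRNAs. CCDC78, of the centriole amplification machinery, was lower, at a mean of 1.857 TPM in control, 0.837 with siRNA1, 0.467 with siRNA2 and 1.323 with siRNA3, as was MCIDAS, at 1.93, 0.80, 1.303 and 0.93. TEKT2 stayed at a mean of 0.023 to 0.043 TPM in A549. The part of such markers in the heavy chain results was not tested.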

How the data were processed

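The authors deposited 1 RSEM gene table for each of the 18 libraries, holding expected counts, TPM and FPKM, per the file headers. RSEM and the genome build hg19 are named in the submitters' processing notes, and the aligner, annotation and strand setting were not given in the sources used here. Libraries were stranded, ribosomal RNA-depleted total RNA, per the labels' protocols. Deposited expected counts were rounded to whole numbers and tested, the authors' TPM served for levels between genes, and the deposited FPKM values were not used. Library totals ran from 30143047 to 40328208. CPM is the rounded count scaled to the library total with edgeR's TMM scaling. This scaling was done within each line, so CPM levels of A549 and MDA-MB-231 were not scaled to each other. The CPM threshold of filterByExpr was taken on library totals before TMM scaling. No per-sample column was left unmapped (0 columns).

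Counts were fitted with edgeR 4.0.16 in R 4.3.3 (TMM scaling, filterByExpr with a minimum count of 10 and a minimum total of 15, quasi-likelihood test) and adjusted over all genes tested by the Benjamini-Hochberg method, with a threshold of 0.05, all tests two-sided. The A549 fit held 12 libraries, the MDA-MB-231 fit 6, the interaction 12 and the comparison of controls 6. Groups came from the labels. Alternatives were DESeq2 1.42.0 (Wald test, and its size factors in edgeR), limma 3.58.1 on log2(TPM + 1) and log2(TPM + 0.1), no filter on low counts, a filter of 1 CPM in 3 libraries, only the groups compared, the replicate number as a block, and each library left out in turn. The scripts were tested on simulated data.

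The members and gene lists were chosen with earlier results of these data known. Members named with values are DNAH7, those called with an absolute log2 fold change of at least 1 against control, the 5 highest and 5 lowest called against each control, the 3 highest and 3 lowest called in the other comparisons, those next to the count minimum, and those called in 1 direction against every control. Genes of other lists are from the 4 smallest adjusted p of a list and comparison, and others were chosen after their values were seen. Promoter letters are RefSeq's, on GRCh38.p14, and no coordinate was carried between builds. Of the members, 31 of 40 overlap another gene model, and reads of such genes may be shared.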

Additional observations from a re-analysis of the deposited data

Results flagged for a closer look

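The siRNA1 effect differed between A549 and MDA-MB-231, by the interaction term, for 22 members of 39, or 56.4%, near the 57.8% of all genes called. Among the 22 are DNAH2, DNAH12, DNAAF1 and DNAH11, which passed the filter on low counts only through some groups, so their calls support nothing. The differences below are A549 minus MDA-MB-231 on the log2 scale. DNAH7 was left out because it was chosen for its siRNA1 values.

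Among the heavy chains, the differences were 3.77 for DNAH2, 2.48 for DNAH10, 2.23 for DNAH11, 2.11 for DNAH5, 1.68 for DNAH12, 1.02 for DNAH1 and 0.83 for DNAH6, more positive in A549 on counts. The DNAH11 difference turned to -0.32 on log2(TPM + 1). DNAH14 differed by -1.28 with opposite directions in the lines. DNAH12 and DNAH2 had means of few reads in A549, and the DNAH6 difference was lost without replicate 2 or 3 of MDA-MB-231 siRNA1 or replicate 3 of its control (adjusted p of 0.0664 to 0.0968).

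Of the assembly factors, DNAAF1 differed by 3.04, DNAAF2 by -1.21 and DNAAF3 by -0.86. DNAAF2 fell in A549 and rose in MDA-MB-231, each past the threshold.

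Of the BBS genes, BBS1 differed by 1.49, BBS2 by 0.62 and BBS4 by 0.44 (0.29 without replicate 2 of MDA-MB-231 siRNA1), and BBS10 by -0.71, BBS12 by -0.61 and BBS5 by -0.47. The BBS5 difference was lost without replicate 1 or 2 of A549 control or replicate 1 of MDA-MB-231 control (adjusted p of 0.0550 to 0.0622).

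Of the IFT genes, IFT80 differed by -0.66, IFT81 by -0.60, IFT88 by -0.53 and IFT74 by -0.48, all more negative in A549, and IFT22 by 0.31. The IFT22 difference was lost without replicate 1 of A549 siRNA1, replicate 3 of A549 control, replicate 2 of MDA-MB-231 control or any MDA-MB-231 siRNA1 library, and then lay between 0.15 and 0.28 (adjusted p of 0.0522 to 0.282).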

How the results depend on the processing

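The counts of members called in the 9 comparisons stayed within 1.5 times of those reported under every alternative run. Over the called member values, with the DNAH7 values that were not tested left aside, DESeq2's Wald test left 214 on the same side of the threshold and 11 weaker, DESeq2's size factors 221 and 4, the 1 CPM filter 211 and 4, no filter 211 and 14, log2(TPM + 0.1) 211 and 14, log2(TPM + 1) 203 and 21, and fitting only the groups compared 140 and 8. Leaving out single libraries left 1352 on the same side and 130 weaker. One value reversed, the DNAH11 interaction on log2(TPM + 1). The DNAH11 difference between the lines was 2.23 on counts and -0.32 on log2(TPM + 1), and the cause was not tested, DNAH11 being at 0.04 TPM in A549 control. On log2(TPM + 1) the median of all genes moved to 0.23 for A549 siRNA1, 0.13 for the interaction and -0.20 between controls. Same-numbered libraries did not deviate together (r of -0.342 to 0.175 in A549 and -0.084 to 0.101 in MDA-MB-231), so the numbers were not taken as pairs. With the replicate block, members called numbered 22 higher and 6 lower for siRNA1, 22 and 4 for siRNA2 and 15 and 9 for siRNA3 in A549, and 24 and 3 in MDA-MB-231. The block left 217 values on the same side and 8 weaker. With a pseudocount of 0.1 the members' splits were 16 and 8 for the interaction, 13 and 5 for siRNA1 against siRNA2 and 20 and 14 between controls. Few reads in A549 control, at means of 2 to 15.7 expected counts, limit DNAAF1, DNAH2, DNAH12, DNAH11, DNAH10 and DNAH3. Folds of these genes that rest on those libraries are uncertain.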
